A study of Mus musculus with 18 samples.

Results

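The colony-stimulating factors and their receptors are 8 of the 25926 genes in the expression table: the cytokine genes Csf1, Csf2 and Csf3 and the receptor genes Csf1r, Csf2ra, Csf2rb, Csf2rb2 and Csf3r. They were taken by symbol, and all 8 had a row. These genes were chosen by reading their FPKM (fragments mapped to a gene, scaled for the length of its transcript and for the total mapped) in these samples and their differences in the 3 comparisons made here, so their values are a description, with no p-value. Where a count says how many members passed the thresholds used for all genes, it is a description too. RNA was sequenced from bone marrow-derived macrophages (BMDMs) of C57BL/6 mice, C57BL/6J in the growth protocol, that had matured for 7 days in 50 ng/mL M-CSF, the product of Csf1, and that shared a 0.4 μm Transwell with renal tubular epithelial cells (TECs). Every group therefore had matured in added M-CSF and had a TEC co-culture. In the NC group the BMDMs received PBS beside TECs without crystals. In the COM group they received PBS beside TECs that had been given calcium oxalate monohydrate (COM) crystals at 100 μg/mL over 24 h. In the COM+Met group the BMDMs received 5.0 mM Met, an agent the labels do not spell out, for 24 h beside COM-exposed TECs. Each group held 6 samples, and nothing in the labels says whether they came from separate mice or cultures, so p-values given for other genes rest on sample-to-sample spread that could be technical alone.

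M-CSF, GM-CSF and G-CSF, encoded by Csf1, Csf2 and Csf3, are secreted cytokines that sustain and direct the myeloid lineages. M-CSF binds the receptor tyrosine kinase encoded by Csf1r, which macrophages need for survival and which is also the receptor of interleukin-34. GM-CSF binds an alpha chain, encoded by Csf2ra, that pairs with the common beta chain encoded by Csf2rb and signals through JAK2 and STAT5. Csf2rb2 encodes a second beta chain, found in mice, that serves the interleukin-3 receptor. G-CSF acts through the homodimeric receptor encoded by Csf3r, best known from neutrophils. In the kidney, tubular cells and resident macrophages are known sources and targets of M-CSF.

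The libraries were not uniform within groups. Pearson's r between samples on the log2(FPKM + 1) scale ran from 0.938 to 0.995 in NC, from 0.888 to 0.995 in COM and from 0.989 to 0.995 in COM+Met. NC-5 and NC-6 stood apart from the other NC samples, and COM-1, COM-2 and COM-3 stood apart from COM-4, COM-5 and COM-6. The table gives no counts, so sequencing depth is unknown. All 10 macrophage markers were detected in every group, and their summed level ran from 12877 to 17593 FPKM in NC, from 10732 to 14808 FPKM in COM and from 13005 to 17755 FPKM in COM+Met. Most of each sum was Lyz2 (11610, 9517 and 12780 FPKM on average), and single markers differed widely between groups, such as Lgals3 with 2172, 702 and 906 FPKM and Cd14 with 64.7, 400.5 and 378 FPKM in NC, COM and COM+Met. Compared with NC, the median tested gene was lower by log2 -0.27 in COM and by log2 -0.26 in COM+Met on the deposited scale, a shift to keep in mind for every member. That median was 0.0033 in COM+Met against COM.

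RefSeq (build GRCm38.p6) gives sequence before the start of 5 of the 8 genes, and for Csf1 and Csf2rb2 that start was the same as the start of the gene in GENCODE. Only these 2 genes are shown, because their starts agreed. The 250 bases before each start were searched on both strands for the TATA box (TATAAA), an NF-kappa B site (GGANTTTCC), an AP-1 site (TGANTCA), a STAT site (TTCNNNGAA) and the PU.1 core (GAGGAA). Capitals mark a match, and the minus-strand genes are written 5′ to 3′ in their own direction, from chr3:107760470-107760719 for Csf1 and chr15:78305722-78305971 for Csf2rb2.
Csf1: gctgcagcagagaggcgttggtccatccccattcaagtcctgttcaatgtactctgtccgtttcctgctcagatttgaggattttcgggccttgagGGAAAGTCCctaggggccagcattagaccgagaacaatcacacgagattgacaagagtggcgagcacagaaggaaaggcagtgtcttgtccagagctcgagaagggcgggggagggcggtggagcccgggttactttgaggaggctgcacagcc
Csf2rb2: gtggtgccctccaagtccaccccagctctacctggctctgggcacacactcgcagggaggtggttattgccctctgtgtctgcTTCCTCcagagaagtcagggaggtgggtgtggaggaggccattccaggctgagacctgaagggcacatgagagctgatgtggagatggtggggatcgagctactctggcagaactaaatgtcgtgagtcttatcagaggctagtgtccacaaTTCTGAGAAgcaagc
The Csf1 window held the NF-kappa B letters on the opposite strand, with the first base 154 bases before the start, and 1.05% of all 27025 promoters held them. The Csf2rb2 window held the PU.1 letters on the opposite strand at 167 bases, which 23.1% of promoters held, and the STAT letters at 15 bases, which 7.18% held. Neither window held the TATA letters (13.0% of promoters) or the AP-1 letters (6.87%). A match is a match of letters and not a measured binding site.

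Csf1 was the one cytokine gene of the family with a substantial level in all 18 samples, and the COM+Met samples were the highest. The gene (ENSMUSG00000014599) lies on the minus strand of chromosome 3 at 107741048 to 107760469 in GENCODE M21 (GRCm38). In NC it measured 34.4, 40.2, 35.2, 40.9, 19.8 and 18.7 FPKM. In COM it measured 15.7, 14.7, 14.0, 46.3, 51.4 and 47.7 FPKM. In COM+Met it measured 122, 75.7, 73.7, 75.8, 79.1 and 63.5 FPKM. Every COM+Met sample stood above every NC and every COM sample. The COM samples fell on both sides of NC: COM-1 to COM-3 were below the lowest NC sample and COM-4 to COM-6 above the highest one.

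The group means of Csf1 were 31.5 ± 9.85 FPKM (SD, n = 6) in NC, 31.6 ± 18.5 FPKM (SD, n = 6) in COM and 81.7 ± 20.7 FPKM (SD, n = 6) in COM+Met. By mean FPKM, the gene ranked 2048 of all genes in NC, 1901 in COM and 704 in COM+Met. The log2 fold change of FPKM + 1 was 1.53 (SE 0.35) in COM+Met against COM, 1.38 (SE 0.21) in COM+Met against NC and -0.15 (SE 0.38) in COM against NC. The first of these rested in size on which COM libraries were used: it was 2.36 without COM-4 to COM-6 and 0.71 without COM-1 to COM-3, where the gene was no longer called. In COM against NC the value was -0.98 without COM-4 to COM-6 and 0.67 without COM-1 to COM-3. With median-of-ratios size factors, a scaling that sets the median gene level across samples, it was 0.16, and it was -1.11 and called when samples were weighted by their spread.

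The summed level of 9 stromal markers, of cells that also make M-CSF, ran from 21.7 to 77.2 FPKM in NC, from 6.06 to 42.4 FPKM in COM and from 3.32 to 8.72 FPKM in COM+Met. In NC the highest of these genes on average was Col1a2 (17.7 FPKM). Pdgfrb did not follow the sum: it averaged 1.06 FPKM in NC, 4.81 FPKM in COM and 2.93 FPKM in COM+Met, where it was the highest of the list. In NC, the samples with less Csf1 also had the smaller stromal sums (47.0 FPKM in NC-5 and 21.7 FPKM in NC-6, against 58.8 to 77.2 FPKM), and COM+Met-1, with the most Csf1, had the largest sum of its group. COM did not follow this: COM-1 to COM-3, with less Csf1, had sums of 42.4, 20.8 and 13.8 FPKM. COM-4 to COM-6, with more Csf1, had 6.06, 10.6 and 19.9 FPKM. Between groups, COM+Met had the most Csf1 and the smallest median sum (3.94 FPKM, against 59.1 in NC and 16.9 in COM). The part of stromal cells in the Csf1 values was not tested. In bulk RNA, more cells that express a gene and more RNA of it per cell cannot be told apart.

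**Figure D1:**
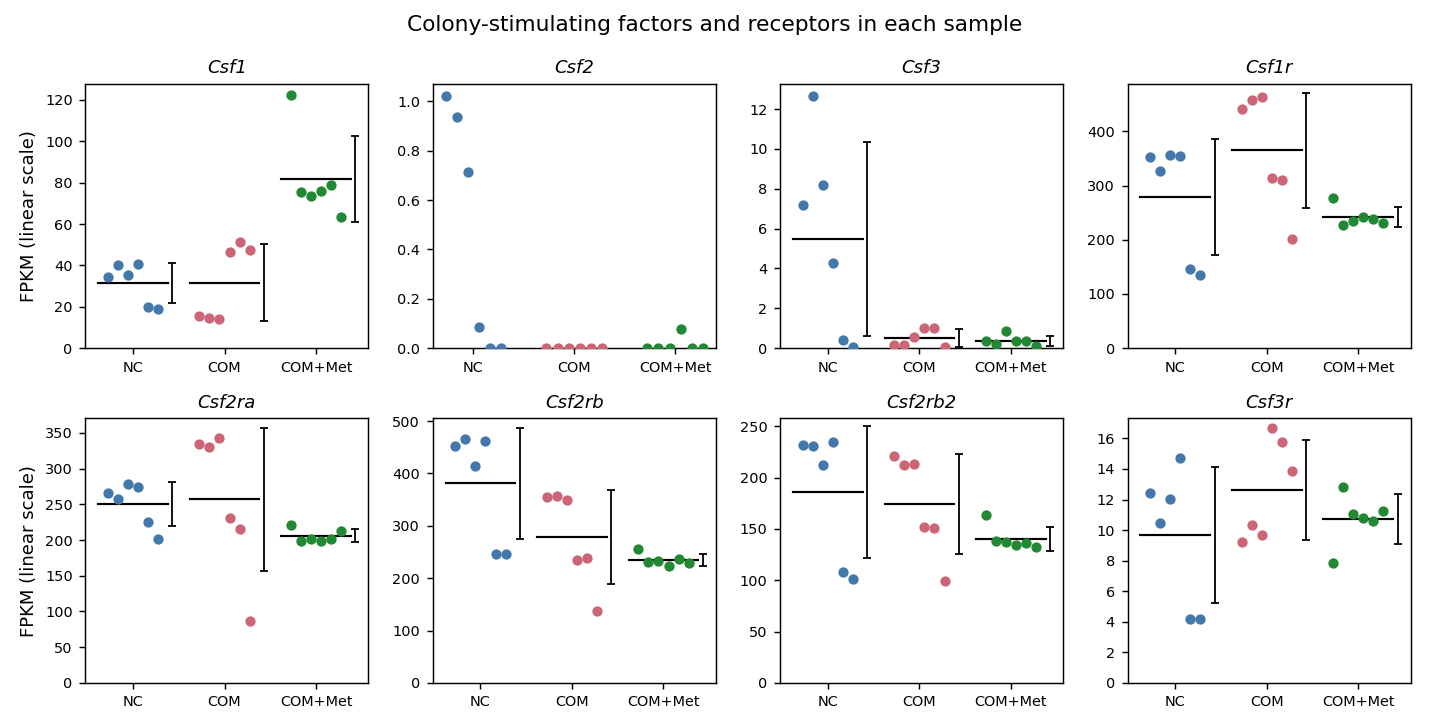
FPKM of each gene (linear vertical axes starting at 0, a scale of its own per panel) in the 6 samples of NC, COM and COM+Met, in the order of their numbers from left to right; horizontal lines are group means and bars are ± SD, left out for Csf2, which was listed at 0 in 13 of 18 samples. Csf1 in COM+Met (63.5 to 122 FPKM) lies above all other samples, and NC and COM each split into subsets in most panels.

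Csf2 and Csf3 were found mainly in NC-1 to NC-4. Csf2 (ENSMUSG00000018916; chromosome 11, 54247271 to 54249667, minus strand) was listed at 1.02, 0.937, 0.713 and 0.0853 FPKM in NC-1 to NC-4 and at 0 in NC-5 and NC-6. It was listed at 0 in all 6 COM samples and in 5 of 6 COM+Met samples, with 0.0775 FPKM in COM+Met-4. GM-CSF RNA was thus low or listed at 0 in every group, and its mean stayed below the 1 FPKM that a gene needed to enter a test in each of the 3 comparisons. Since the COM group was listed at 0 throughout, no fold is given. None of 10 housekeeping genes was at 0 in any library. Their lowest value, 2.22 FPKM for Tbp, was above every Csf2 value, so they cannot show whether RNA at the level of Csf2 was missed.

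Csf3 (ENSMUSG00000038067; chromosome 11, 98701263 to 98703629, plus strand), encoding G-CSF, measured 7.19, 12.6, 8.21, 4.28, 0.427 and 0.0516 FPKM in the NC samples. In COM it measured 0.154, 0.179, 0.539, 1.03, 1.03 and 0.0534 FPKM. In COM+Met it measured 0.378, 0.22, 0.837, 0.354, 0.355 and 0.0958 FPKM. NC-1 to NC-4 stood above every COM and COM+Met sample, while NC-5 lay within their range and NC-6 just below it, so NC overlapped both other groups. The means were 5.47 ± 4.86 FPKM (SD, n = 6) in NC, 0.497 ± 0.444 FPKM (SD, n = 6) in COM and 0.373 ± 0.252 FPKM (SD, n = 6) in COM+Met. Csf3 entered the comparisons with NC only through the level of its NC samples, and it stayed below 1 FPKM on average in COM+Met against COM.

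The log2 fold change of Csf3 was -1.64 (SE 0.57) in COM against NC and -1.73 (SE 0.56) in COM+Met against NC. The first one was no longer called when any 1 of NC-1, NC-2, NC-3, NC-4 or COM-6 was left out. The 4 NC samples with Csf3 above 4 FPKM differed from NC-5 and NC-6 in sums of other markers too, higher in the stromal list as given above. Their 9 lymphocyte markers summed to 3.13 to 3.88 FPKM against 1.38 and 0.792 FPKM, whereas their tubular epithelial markers summed to less, at 10.9 to 15.3 FPKM, than those of NC-5 and NC-6, which held the highest epithelial sums of all samples (up to 18.2 FPKM). Over the groups, these 13 epithelial markers summed to 10.9 to 18.2 FPKM in NC, most of it Cdh1 (12.9 FPKM on average), to 0.468 to 1.37 FPKM in COM and to 0.0575 to 0.332 FPKM in COM+Met. Cdh1 was the only epithelial marker to average at least 1 FPKM in NC, and Umod, Krt18 and Havcr1 were at 0 in all groups. Of the lymphocyte list, only Cd4 averaged at least 1 FPKM in NC (1.46 FPKM). The part of other cells in the Csf2 and Csf3 values was not tested.

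Csf1r (ENSMUSG00000024621) was among the most abundant transcripts, and its level differed between subsets of NC and of COM. It ran from 136 to 356 FPKM with a median of 340.1 in NC, from 202 to 464 FPKM with a median of 378 in COM and from 228 to 277 FPKM with a median of 237 in COM+Met. NC-1 to NC-4 averaged 347 FPKM against 141 FPKM in NC-5 and NC-6, and COM-1 to COM-3 averaged 455 FPKM against 275 FPKM in COM-4 to COM-6. The groups overlapped in every comparison, and the means were 279 ± 107, 365 ± 106 and 242 ± 17.7 FPKM (SD, n = 6 each) in NC, COM and COM+Met. The receptor thus ranked 199, 133 and 230 by mean level in these groups. Its log2 fold change was 0.44 (SE 0.31) in COM against NC and -0.53 (SE 0.19) in COM+Met against COM. The first of these was 0.01 without NC-5 and NC-6, 0.28 without NC-5, 0.26 without NC-6, 0.07 without COM-1 to COM-3 and 0.82 without COM-4 to COM-6. Between COM+Met and NC it was -0.09 (SE 0.25), a sign that turned to 0.22 with size factors. The value in COM+Met against COM was -0.91 without COM-4 to COM-6 and -0.16 without COM-1 to COM-3.

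The subsets with more Csf1r also had more RNA of dendritic cell markers, and the same subsets were higher in Csf2ra, Csf2rb and Csf2rb2. The 7 dendritic markers (Flt3, Batf3 and others) summed to 7.63 to 10.0 FPKM in NC-1 to NC-4 against 3.59 and 3.24 FPKM in NC-5 and NC-6, and to 12.6 to 13.9 FPKM in COM-1 to COM-3 against 2.72 to 4.44 FPKM in COM-4 to COM-6. They summed to 2.30 to 3.69 FPKM in COM+Met, where Cd209a and Siglech were at 0. The part of dendritic cells in the receptor values was not tested.

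Set beside its receptor in the same sample, the M-CSF transcript again put COM+Met apart. The ratio of Csf1 to Csf1r, both per length, was 0.118 ± 0.0174 (SD, n = 6) in NC, 0.108 ± 0.0876 in COM and 0.335 ± 0.0569 in COM+Met. It ran from 0.0975 to 0.138 in NC, from 0.0301 to 0.236 in COM and from 0.274 to 0.443 in COM+Met, so every COM+Met sample was above all the others. A ratio within a sample does not depend on the scaling of that sample. In NC the ratio spanned a narrow range although NC-5 and NC-6 had lower levels of both genes, whereas in COM it was at most 0.0356 in COM-1 to COM-3 and at least 0.147 in COM-4 to COM-6.

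**Figure D2:**
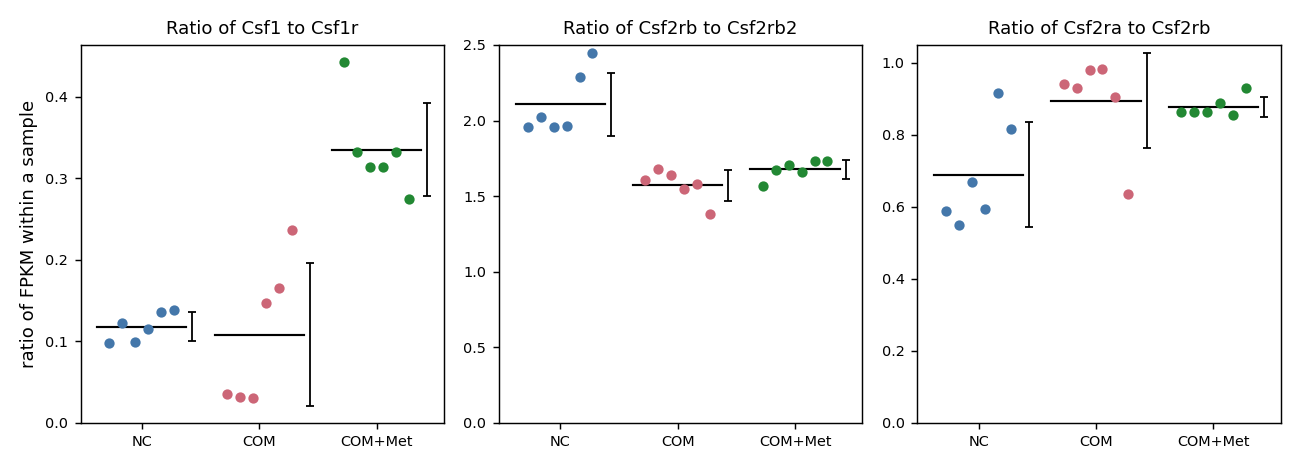
Ratios of FPKM within each sample (vertical axes, no unit, starting at 0) for Csf1 to Csf1r, Csf2rb to Csf2rb2 and Csf2ra to Csf2rb in the 6 samples per group, in the order of their numbers; lines are means and bars ± SD. Csf1 to Csf1r is highest in COM+Met (0.274 to 0.443), and Csf2rb to Csf2rb2 is highest in NC (1.96 to 2.45).

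The GM-CSF receptor chains were abundant in all groups although Csf2 itself did not exceed 1.02 FPKM in any sample. Csf2ra (ENSMUSG00000059326; chromosome 19, 61223957 to 61228429, minus strand), the ligand-binding chain, ran from 201 to 278 FPKM with a median of 261 in NC, from 86.8 to 343 FPKM with a median of 281 in COM and from 198 to 221 FPKM with a median of 202 in COM+Met. COM-6 was far below the other COM samples. The groups overlapped in all 3 comparisons. The means were 251 ± 30.5, 257 ± 100.1 and 206 ± 9.06 FPKM (SD, n = 6 each), with log2 fold changes of -0.09 (SE 0.29) in COM against NC and -0.19 (SE 0.28) in COM+Met against COM. Between COM+Met and NC the value was -0.27 (SE 0.077), which was -0.01 relative to the median gene, and it became 0.04 with size factors. The sign in COM against NC depended on the libraries: it was 0.20 without COM-6, 0.43 without COM-4 to COM-6, -0.61 without COM-1 to COM-3 and 0.23 with size factors. Without COM-1 to COM-3 the value in COM+Met against COM turned to 0.33, and without COM-4 to COM-6 it was -0.70.

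Csf2rb (ENSMUSG00000071713; chromosome 15, 78325752 to 78353847, plus strand), the signalling chain shared by the GM-CSF, interleukin-3 and interleukin-5 receptors, ran from 246 to 467 FPKM with a median of 434 in NC. It ran from 137 to 356 FPKM with a median of 294 in COM and from 223 to 256 FPKM with a median of 232 in COM+Met. The 4 highest values of all 18 samples were NC-1 to NC-4, while NC-5 and NC-6 lay among the COM+Met samples. The means were 381 ± 106, 278 ± 89.9 and 235 ± 11.2 FPKM (SD, n = 6 each). The log2 fold change was -0.48 (SE 0.27) in COM against NC, -0.17 (SE 0.21) in COM+Met against COM and -0.65 (SE 0.17) in COM+Met against NC. The first was -0.76 without NC-5 and NC-6, -0.29 without COM-6, -0.06 without COM-4 to COM-6 and -0.89 without COM-1 to COM-3. The last one was -0.33 with size factors and -0.93 without NC-5 and NC-6. The value in COM+Met against COM turned to 0.25 without COM-1 to COM-3.

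Csf2rb2 (ENSMUSG00000071714; chromosome 15, 78282507 to 78305721, minus strand) lies 20030 bases from Csf2rb and on the other strand. It ran from 101 to 235 FPKM with a median of 221 in NC, from 98.8 to 221 FPKM with a median of 182 in COM and from 132 to 163 FPKM with a median of 136 in COM+Met, and the groups overlapped. The means were 186 ± 64.0, 175 ± 48.8 and 140.2 ± 11.5 FPKM (SD, n = 6 each). Its log2 fold change was -0.06 (SE 0.27) in COM against NC, -0.27 (SE 0.18) in COM+Met against COM and -0.32 (SE 0.22) in COM+Met against NC. The first was -0.43 without NC-5 and NC-6, 0.10 without COM-6, 0.30 without COM-4 to COM-6 and -0.41 without COM-1 to COM-3. With size factors, the first turned to 0.26 and the last was -0.01, and without COM-1 to COM-3 the second turned to 0.09. The coding transcripts of the 2 beta chains share sequence: 17.1% of the 50-base stretches of Csf2rb and 18.8% of those of Csf2rb2 are found in the other gene, and 3.22% and 3.48% of the 150-base stretches. Reads from shared stretches could have been given to either gene, so the level of each is uncertain.

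The balance of the 2 beta chains differed between NC and the other groups in each sample. The ratio of Csf2rb to Csf2rb2 was 2.11 ± 0.21 (SD, n = 6; 1.96 to 2.45) in NC, 1.57 ± 0.103 (1.38 to 1.68) in COM and 1.68 ± 0.0627 (1.57 to 1.74) in COM+Met. No NC sample overlapped the other 12, NC-5 and NC-6 included, while COM and COM+Met overlapped each other. The ratio of the alpha chain to the common beta chain, Csf2ra to Csf2rb, was 0.690 ± 0.146 (0.551 to 0.918) in NC, 0.896 ± 0.131 (0.635 to 0.982) in COM and 0.877 ± 0.028 (0.855 to 0.929) in COM+Met, and all 3 groups overlapped.

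Csf3r (ENSMUSG00000028859; chromosome 4, 126024550 to 126044440, plus strand), the G-CSF receptor, was expressed at a low level in every sample. It ran from 4.19 to 14.7 FPKM with a median of 11.2 in NC, from 9.21 to 16.7 FPKM with a median of 12.1 in COM and from 7.87 to 12.8 FPKM with a median of 10.9 in COM+Met, and the groups overlapped. NC-5 and NC-6 were the lowest of all 18 samples. The means were 9.68 ± 4.46, 12.6 ± 3.27 and 10.7 ± 1.61 FPKM (SD, n = 6 each). The log2 fold change was 0.45 (SE 0.29) in COM against NC, -0.19 (SE 0.16) in COM+Met against COM and 0.26 (SE 0.27) in COM+Met against NC. Without NC-5 and NC-6 the first was -0.01 and the last -0.20. The first was 0.14 without COM-4 to COM-6 and 0.75 without COM-1 to COM-3.

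The sum of 14 neutrophil markers, in COM mostly Lcn2, moved with Csf3r between the subsets of NC and of COM, but not within COM+Met. It was 547 and 566 FPKM in NC-5 and NC-6 and 905 to 1066 FPKM in NC-1 to NC-4, 1227 to 1313 FPKM in COM-1 to COM-3 and 1758 to 1849 FPKM in COM-4 to COM-6, and 727 to 852 FPKM in COM+Met. COM+Met-1 had the highest sum of its group and the lowest Csf3r (7.87 FPKM). In COM and COM+Met the most abundant gene of the list was Lcn2 (mean 1133 and 678 FPKM), which macrophages also express. In COM, Lcn2 ran from 640 to 1672 FPKM, and its highest value exceeded the whole sum of each of COM-1 to COM-3. The sum in COM therefore does not show how the other markers moved between the subsets. Of the 14 genes, 9 averaged at least 1 FPKM in NC, 7 in COM and 6 in COM+Met. S100a8 averaged 254, 169 and 23.5 FPKM in NC, COM and COM+Met, Mmp8 336, 175 and 68.7 FPKM, and Mmp9 5.14, 32.6 and 4.05 FPKM. S100a9 averaged 171, 8.43 and 1.3 FPKM in the same order, and Ngp 30.9, 1.60 and 0.161 FPKM. Cxcr2 averaged 2.26, 0.361 and 0.0636 FPKM, Ltf 2.68, 0.156 and 0.0206 FPKM, and Camp 4.33, 7.93 and 3.08 FPKM. Elane, Mpo and Retnlg were at 0 in every COM and COM+Met sample, Ly6g in every COM sample and Prtn3 in every COM+Met sample. The part of neutrophils in the Csf3r values was not tested.

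By mean FPKM, a level per transcript length, Csf2rb was the highest member in NC, followed by Csf1r, Csf2ra, Csf2rb2, Csf1, Csf3r, Csf3 and Csf2. The order of Csf1r and Csf2ra was not the same in every NC sample: Csf2ra stood at 1.54 and 1.48 times Csf1r in NC-5 and NC-6, and at 0.754 to 0.785 times in the other NC samples. In COM and COM+Met, Csf1r was the highest. The order in COM went on with Csf2rb, Csf2ra, Csf2rb2, Csf1, Csf3r and Csf3, and the SDs of neighbouring receptors overlapped. In COM+Met, where the SDs were smaller, Csf1r (242 ± 17.7 FPKM) and Csf2rb (235 ± 11.2 FPKM) lay within their spread of each other and every Csf2ra sample (198 to 221 FPKM) lay below every Csf2rb sample (223 to 256 FPKM). Csf2rb2 (132 to 163 FPKM) in turn lay below every Csf2ra sample, and Csf1 (63.5 to 122 FPKM) below every Csf2rb2 sample.

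A gene was called when limma gave an adjusted p below 0.05 and the mean on the log2(FPKM + 1) scale differed by at least 2-fold. In COM against NC, 1 of the 7 members tested was called, Csf3, and it was lower. Of all 10900 genes tested, 5.99% were called higher and 11.7% lower, and 38.2% had groups that did not overlap, which held for none of the members tested. In COM+Met against COM, 1 of 6 members tested was called, Csf1, and it was higher. Of all 10364 genes tested, 0.608% were called higher and 1.61% lower, and in 11.2% the groups did not overlap, as in Csf1. In COM+Met against NC, 2 of 7 members tested were called, Csf1 higher and Csf3 lower. There, 5.66% of 10786 genes were called higher and 13.6% lower, and 57.6% had groups that did not overlap. The comparisons share groups, so these counts are not independent of each other, and since the members were chosen on these contrasts nothing is read from them.

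**Figure D3:**
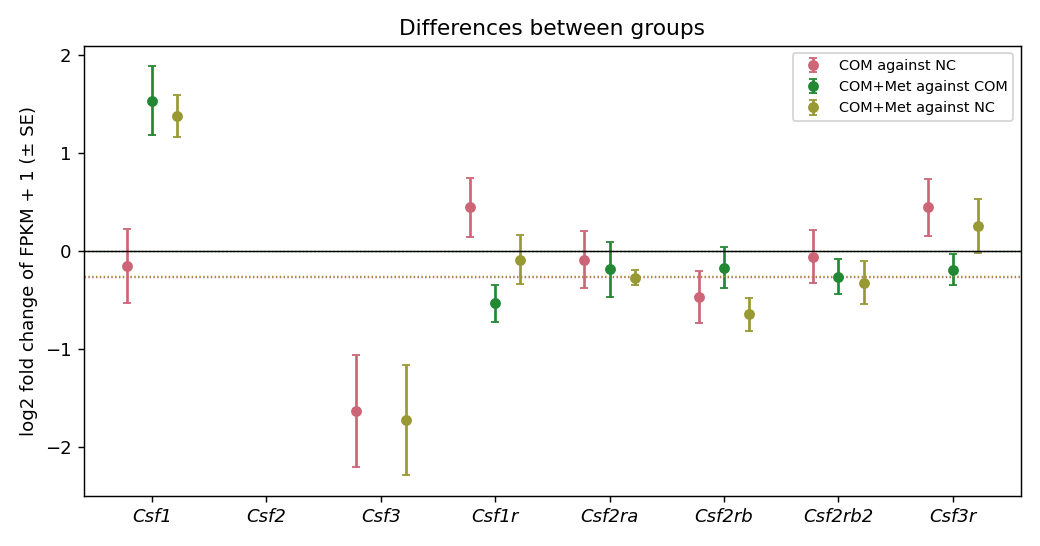
Log2 fold change of FPKM + 1 (vertical axis; points, with bars of ± SE) for each gene tested in COM against NC, COM+Met against COM and COM+Met against NC; dotted lines mark the median of all genes tested in each comparison, and Csf2, and Csf3 in COM+Met against COM, were below the level needed for a test. Csf1 is well above 0 in both comparisons of COM+Met (1.53 and 1.38), and Csf3 is below 0 in both comparisons with NC (-1.64 and -1.73), while the receptor genes lie between -0.65 and 0.45.

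The pathway around the receptors was described with 5 lists holding 102 genes, and their tests are adjusted over all genes. In the counts of these lists, rose and fell mean called higher and called lower. In COM against NC, 91 of them could be tested, of which 13 rose and 12 fell, and their median log2 fold change was -0.27, as for all genes tested. Of all genes tested there, 5.99% were called higher and 11.7% lower. For COM+Met against COM, 4 of 87 rose and 2 fell, with a median of -0.12 beside 0.0033 for all genes. The shares of all genes called were 0.608% higher and 1.61% lower. For COM+Met against NC, 11 of 88 rose and 17 fell, with a median of -0.26, as for all genes. Here the shares of all genes called were 5.66% higher and 13.6% lower. The counts of each list below are to be read beside the shares of their comparison. Without COM-4 to COM-6 the number called in COM+Met against COM was 22 in place of 6, and without COM-6 it was 12.

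The relatives of the family were mostly absent. Il34, the other ligand of the Csf1r product, was at 0 in all COM+Met samples and at most 0.132 FPKM elsewhere. Il3 was at 0 in all 18 samples, and Il5 was at 0 in NC and COM and at most 0.0426 FPKM in COM+Met. Of the receptors that share the common beta chain, Il5ra was at most 0.0993 FPKM in any sample, whereas Il3ra measured 11.9 ± 2.11 FPKM (SD, n = 6) in NC, 12.2 ± 4.48 FPKM in COM and 15.9 ± 1.40 FPKM in COM+Met. Il3ra was higher in COM+Met than in NC by log2 0.40 (adjusted p = 0.00352), less than 2-fold, with no overlap between groups. Such a lack of overlap held for 57.6% of all genes tested in this comparison. Flt3, a receptor tyrosine kinase of early progenitors and dendritic cells, rose in COM from 0.370 ± 0.268 to 2.49 ± 1.43 FPKM (log2 fold change 1.26, adjusted p = 0.00153), a call lost without COM-1 to COM-3. Flt3 averaged below 1 FPKM in NC, so it entered this comparison only through the level of its COM samples. It was the only gene called among 5 tested of this list of 13, whose median was 0.34. In COM+Met none of 5 tested against COM (median -0.37) and none of 3 tested against NC (median 0.40) were called. Kit averaged 0.875, 1.85 and 0.9996 FPKM in NC, COM and COM+Met, and Flt3 0.896 FPKM in COM+Met. Both genes thus entered the comparisons that include COM only through the COM samples.

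Among 34 signalling genes of these receptors, 4 rose and 2 fell in COM against NC, with a median of -0.26. Jak2, the kinase bound to the beta chains, rose from 28.1 ± 11.9 to 134 ± 40.2 FPKM (log2 fold change 2.29, SE 0.28, adjusted p = 3.13e-05), and no COM sample overlapped NC. Groups did not overlap in 38.2% of all genes tested there. Src, a kinase recruited by activated receptors, rose from 6.02 ± 3.99 to 26.0 ± 9.67 FPKM (adjusted p = 0.00264). Socs3, an inhibitor of JAK signalling from the G-CSF receptor, rose from 15.1 ± 8.96 to 58.1 ± 39.5 FPKM (adjusted p = 0.00641), a call lost without COM-4 to COM-6, and its relative Socs2, called in 16 of 25 alternatives, was the fourth to rise. The adaptor genes Dok2 (log2 fold change -1.28, adjusted p = 0.0435) and Gab1 (-1.13, adjusted p = 0.000732) fell. The call of Dok2 held in 12 of 25 alternatives and that of Gab1 in 19.

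The same list held 2 falls and no rise in COM+Met against COM, with a median of -0.11. Socs2, an inhibitor in the same family, fell from 9.45 ± 3.24 to 3.43 ± 1.15 FPKM (log2 fold change -1.20, adjusted p = 0.00507). Fgr, a Src-family kinase of myeloid cells, fell from 58.8 ± 20.3 to 24.8 ± 1.17 FPKM (log2 fold change -1.14, adjusted p = 0.00279), without overlap between groups, as in 11.2% of all genes tested there. Between COM+Met and NC, Src (2.66), Socs3 (2.39) and Jak2 (1.89) rose and Dok2 (-2.36), Fgr (-2.04) and Gab1 (-1.40) fell on the log2 scale, with adjusted p from 1.74e-11 to 8.17e-05 and no overlap for any of the 6. Of all genes tested in this comparison, 57.6% had groups that did not overlap. The median of the list was -0.26.

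Of 24 genes listed for the control of the factors and receptors, none was called higher and 5 were called lower in COM against NC. Their median was -0.24, and by the adjusted p alone 1 was higher and 8 were lower. Klf4, a monocyte transcription factor, fell from 23.3 ± 13.3 to 3.88 ± 0.644 FPKM (log2 fold change -2.15, adjusted p = 8.18e-05). Fos, a component of AP-1, fell from 19.4 ± 2.18 to 4.59 ± 0.720 FPKM (-1.87, adjusted p = 6.38e-08). Egr2, a macrophage zinc-finger factor, fell with a log2 fold change of -1.72 (adjusted p = 0.0024), and Zfp36l2 and Cebpa were the other two that fell. None of 23 tested were called in COM+Met against COM (median -0.10). Against NC, 6 of 24 fell in COM+Met (median -0.28), led by Fos (-2.42), Klf4 (-2.25) and Egr2 (-1.69), with adjusted p of 1.97e-11, 2.09e-05 and 2.29e-05.

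Spi1, which encodes PU.1, a factor that macrophages need to express Csf1r, was not called in any comparison. It is named here because its letters were searched above, after its values were seen. Its level was 210.0 ± 8.52 FPKM in NC, 139 ± 22.8 FPKM in COM and 125 ± 5.72 FPKM in COM+Met (SD, n = 6 each). It was lower than NC by less than 2-fold in COM (log2 -0.61, adjusted p = 0.00147) and in COM+Met (log2 -0.74, adjusted p = 7.53e-09).

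Genes associated with GM-CSF culture of macrophages moved in both directions. In COM against NC, 3 of 13 tested rose and 3 fell, with a median of -0.29. Ccr7, a chemokine receptor of activated antigen-presenting cells, rose from 9.94 ± 7.38 to 133 ± 77.1 FPKM (log2 fold change 3.83, adjusted p = 0.000243). Ccl22, a chemokine, rose from 28.2 ± 21.3 to 252 ± 97.5 FPKM (3.57, adjusted p = 0.000401), and Inhba, encoding an activin subunit, rose with 2.43 (adjusted p = 0.0078), the last call being lost without COM-4 to COM-6. Pparg, a lipid-sensing nuclear receptor, fell from 12.9 ± 6.70 to 0.651 ± 0.440 FPKM (-3.0, adjusted p = 2.97e-06), and the lectin gene Mgl2 fell with -2.09 (adjusted p = 0.00139). Pparg and Mgl2 averaged below 1 FPKM in COM and COM+Met, so they entered both comparisons with NC only through their NC samples. Ccl17, a chemokine that GM-CSF induces, fell with -1.45 (adjusted p = 0.0448), a call kept in 9 of 25 alternatives.

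None of 11 genes of this list tested were called in COM+Met against COM, although 6 passed the adjusted p, all of them lower. The list's median log2 fold change was -0.82, beside 0.0033 for all genes tested. Zbtb46 (1.70 FPKM in COM, 0.613 FPKM in COM+Met) and Batf3 (1.72 and 0.933 FPKM) entered this comparison only through their COM samples. The list shares Zbtb46, Batf3 and Cd209a with the dendritic cell markers, whose sums were, as given above, higher in COM-1 to COM-3 than in COM-4 to COM-6 and COM+Met. Their part in this result was not tested. Against NC, 3 of 12 rose and 6 fell in COM+Met, with a median of -0.86. The 3 that rose were Inhba (2.96, adjusted p = 0.000736), Ccr7 (2.80, adjusted p = 0.000365) and Ccl22 (2.75, adjusted p = 0.000903). The largest falls were Pparg (-3.27, adjusted p = 5.67e-08), Ccl17 (-2.39, adjusted p = 0.00229) and Mgl2 (-2.23, adjusted p = 0.000215).

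Genes associated with M-CSF macrophages were divided as well. In COM against NC, 5 of 15 tested rose and 2 fell, with a median of -0.43. Fcgr1, a high-affinity Fc receptor, rose from 8.05 ± 0.829 to 83.7 ± 47.1 FPKM (log2 fold change 3.05, adjusted p = 3.52e-06). Adgre1, encoding the macrophage marker F4/80, rose from 112 ± 9.98 to 577 ± 63.2 FPKM (2.36, adjusted p = 1.39e-08), and Acp5, a phosphatase of osteoclasts and macrophages, rose with 2.31 (adjusted p = 0.00231). The other two that rose were Ccnd2 and Mmp14, the latter called in 13 of 25 alternatives. Mrc1, the mannose receptor, fell from 79.9 ± 32.5 to 3.26 ± 1.93 FPKM (-4.29, adjusted p = 6.08e-07), and Myc, a growth regulator, fell from 11.3 ± 1.92 to 0.328 ± 0.153 FPKM (-3.20, adjusted p = 2.31e-09). Myc averaged below 1 FPKM in COM and COM+Met, so it entered both comparisons with NC only through its NC samples.

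In COM+Met against COM the M-CSF list held 4 rises and no fall among 14 genes tested, with a median of 0.23. C1qb, C1qa and C1qc, which encode the chains of complement C1q, rose together. C1qb rose from 4.37 ± 1.86 to 21.3 ± 8.46 FPKM (log2 fold change 1.96, adjusted p = 0.00384), C1qa with 1.82 (adjusted p = 0.00465) and C1qc with 1.75 (adjusted p = 0.00336), and in each of them the groups overlapped. Plau, encoding urokinase, rose from 20.6 ± 7.64 to 42.1 ± 5.67 FPKM (1.06, adjusted p = 0.0043), a call kept in 19 of 24 alternatives. Against NC, 5 of 15 rose and 2 fell in COM+Met, with a median of 0.85. Ccl2, a monocyte chemokine, rose from 14.6 ± 8.88 to 124 ± 17.8 FPKM (3.25, adjusted p = 6.09e-06), followed by Fcgr1 (2.81, adjusted p = 3.73e-11) and Adgre1 (2.38, adjusted p = 2.56e-11). Mrc1 (-4.39, adjusted p = 9.44e-10) and Myc (-3.03, adjusted p = 5.19e-11) fell.

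**Figure D4:**
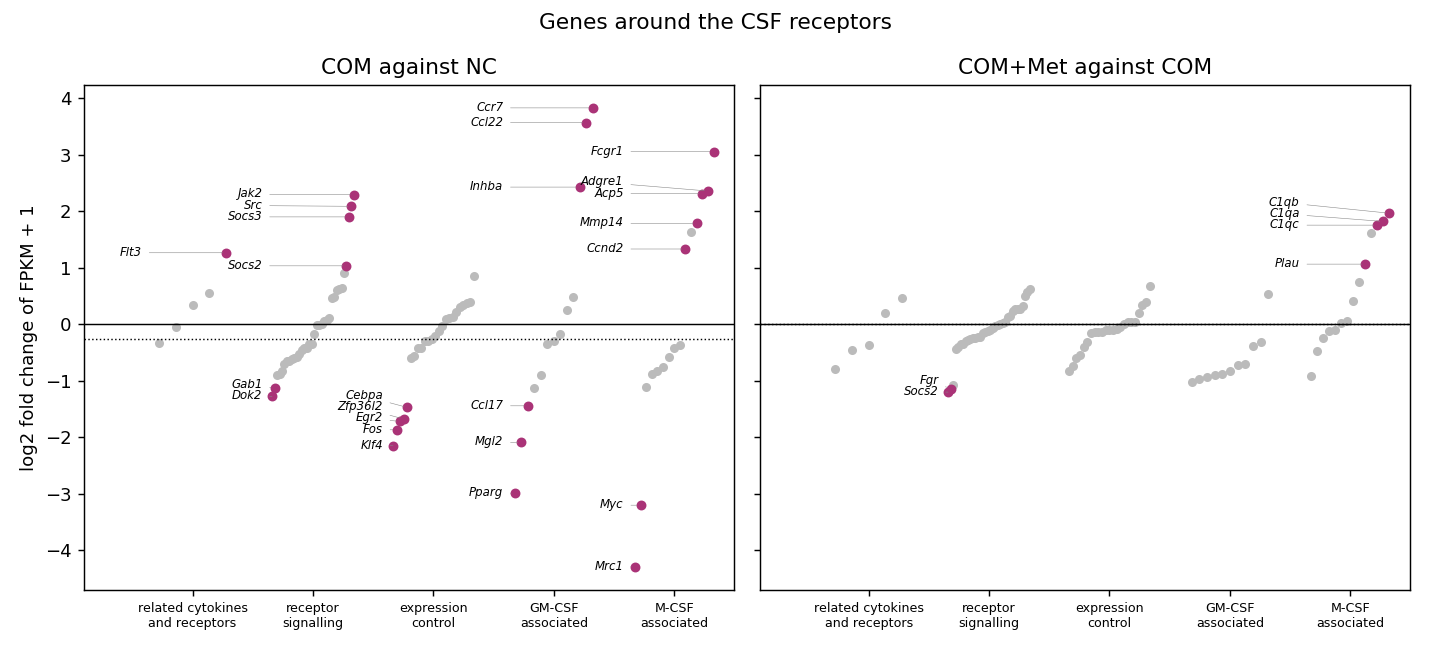
Log2 fold change of FPKM + 1 (vertical axis) of the genes tested in 5 pathway lists (horizontal axis, ordered within each list by value) in COM against NC and COM+Met against COM; purple points with names were called, grey points were not, and the dotted line marks the median of all genes tested. In COM against NC 25 points are purple and spread from -4.29 to 3.83, whereas in COM+Met against COM 6 are, from -1.20 to 1.96.

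Profiles most like those of the members were sought over all 18 samples among 10324 other genes, by the mean absolute difference of z-scores of log2(FPKM + 1), which is 0 for the same profile. Near to Csf1 were Hcar2 (0.273) and Rgl1 (0.29), and Hcar2 measured 17.1 FPKM in NC, 23.9 in COM and 48.8 in COM+Met on average. Nearest to Csf1r were Ankrd66 (0.242), Slc39a4 (0.243) and Serpinb2 (0.257). The distances were shorter for the alpha chain and both beta chains: Extl3 (0.167), Icmt (0.209) and Ppm1m (0.211) for Csf2ra, Cfp (0.214), Dcstamp (0.217) and Napsa (0.217) for Csf2rb, and Arl4c (0.162), Dpep2 (0.195) and Zfp516 (0.197) for Csf2rb2. Cfp, encoding properdin, averaged 171 FPKM in NC, 64.1 in COM and 44.9 in COM+Met. Nearest to Csf3 were Nfkb1 (0.263), Trim13 (0.284) and Serpinb10 (0.311), and to Csf3r Fgl2 (0.338), Cacnb1 (0.349) and Tlr9 (0.353). The samples share their libraries across genes, and a near profile says nothing of shared control.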

How the data were processed

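Total RNA of BMDMs was extracted with Trizol and sequenced from TruSeq libraries, 18 samples in 3 groups of 6 taken from the labels. The authors deposited a single table of FPKM per gene. Bowtie 0.12.2 is listed in the submitters' processing notes, together with builds mm9 and mm8 whose roles are not stated, and for the quantifier and its annotation the sources used here give nothing. FPKM carry no counts and low values did not resolve into whole reads (the commonest ratio held for at most 0.375% of genes below 0.5 FPKM), so no count test was run and no interval for depth is given. Positions come from GENCODE M21 and sequences from RefSeq (GRCm38.p6), which is not a build of those notes. In a treatment note of the labels both COM and COM+Met cells receive Met, whereas the sample characteristics give PBS for COM, and the characteristics were followed.

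Each comparison was fitted on its own 12 samples with limma 3.58.1 (R 4.3.3; lmFit, eBayes with trend) on log2(FPKM + 1), which understates changes of low genes. Genes entered where their mean FPKM in those 12 samples was 1 or more, and p-values were adjusted by Benjamini-Hochberg over all of them. Genes were called at adjusted p below 0.05 and 2-fold. The fits were tested on simulated data. The members and the gene lists were chosen with earlier results of these data known, and members have no p-value. Named genes were the 8 members, Il34, Il3, Il5, Il3ra and Il5ra, up to 3 called genes in each direction per list and comparison, and the 3 nearest profiles of each member averaging 1 FPKM or more, of which 1 is not reported here. Beyond these, Kit, Socs2, Zfp36l2, Cebpa, Ccnd2, Mmp14, Plau, Spi1 and single marker genes are named in some comparisons, chosen after their values were seen. The marker lists of macrophages, neutrophils, stromal, tubular epithelial and dendritic cells and lymphocytes are given as sums, and the lymphocyte sum ran from 0.451 to 1.86 FPKM in COM and from 0.470 to 0.931 FPKM in COM+Met (Trbc2 of that list had no row). Alternatives were pseudocounts of 0.1 and 5, no filter and one of 5 FPKM, rescaling to equal sums, median-of-ratios size factors, quantile normalisation, a replicate block, a fit of all 18 samples, sample weights, and leaving out libraries. Figures were drawn with matplotlib 3.10.9.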

Additional observations from a re-analysis of the deposited data

Results flagged for a closer look

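In 5 of 23 groups of 6 values, 1 sample lay farther from the rest than Dixon's test allows at the 95% level, and chance alone flags about 1 in 20 groups. The 5 are not separate draws, since 3 of them are the same library, COM+Met-1, and for Csf2 a single value above 0 among zeros meets the rule by its construction. Csf1 in COM+Met-1 was 122.4 FPKM, against 63.5 to 79.1 FPKM in the other 5 COM+Met samples. Csf1r in the same sample was 276.7 FPKM, against 228 to 242 FPKM in the others. Csf2rb2 in the same sample was 163.2 FPKM, against 132 to 138 FPKM in the others. Csf2ra in COM-6 was 86.77 FPKM, against 215 to 343 FPKM in the other COM samples. Csf2 in COM+Met-4 was 0.07753 FPKM, where the other COM+Met samples were listed at 0. Leaving out COM+Met-1 did not change the call of Csf1 against COM or against NC.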

How the results depend on the processing

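Of 24 alternatives for Csf1 in COM+Met against COM, 23 kept the call, and all 23 did so in COM+Met against NC (log2 fold change 1.07 to 1.69). Csf3 was called in 14 of 25 alternatives in COM against NC and in 21 of 23 in COM+Met against NC. The alternatives reuse the samples on which the members were chosen. These counts therefore describe dependence on settings and give the differences no support. The number of members called in COM against NC, 1 as reported, was 0 with a pseudocount of 0.1 or 5, without a filter, with a filter of 5 FPKM, without COM-4 to COM-6 and without COM-1 to COM-3, and 2 with sample weights; leaving out 1 sample gave 0 to 1. In COM+Met against COM it went from 1 to 0 without COM-1 to COM-3, and in COM+Met against NC from 2 to 1 with a pseudocount of 5 or a filter of 5 FPKM. A pseudocount of 5 lowered the genes called from 1926 to 980 in COM against NC and from 2078 to 1117 in COM+Met against NC. In COM+Met against COM the 230 genes called became 370 with a pseudocount of 0.1, 90 with one of 5, 719 with sample weights and 771 without COM-4 to COM-6. The 6 pathway genes called there became 3 with a pseudocount of 5, 20 with sample weights and 22 without COM-4 to COM-6, and 5 to 12 when 1 sample was left out, the highest without COM-6. Scaling moved the balance of calls: 653 genes higher and 1273 lower in COM against NC became 874 and 812 with size factors and 801 and 894 with quantile normalisation, and 611 and 1467 in COM+Met against NC became 849 and 976, and 792 and 1018. Samples with the same number in different groups did not deviate together (correlations from -0.222 to 0.0569, none over 0.1). The splits within NC and COM enter these correlations, so they cannot decide whether the numbers are a pairing. With a replicate block 1920, 202 and 2080 genes were called in COM against NC, COM+Met against COM and COM+Met against NC. Without it the numbers called were 1926, 230 and 2078, and the members called were as many. No result turned to the opposite direction while called. The unknown depth limits what can be said of Csf2 and of Csf3 outside NC. Where a call was lost or a count moved, the cause was not tested.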
